A study of Mus musculus with 4 samples.

Results

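The genes described here encode the ubiquitin-like proteins that coat the autophagosome and the best-known cargo receptors that bind them. They are the LC3 genes Map1lc3a and Map1lc3b, the GABARAP genes Gabarap, Gabarapl1 and Gabarapl2, and the receptor genes Sqstm1, which encodes p62, and Nbr1. They were chosen by name: every probe set of the array that the platform annotation assigns to 1 gene, and whose symbol or current synonym is one of these 7, was read on each of the 4 arrays. That gave 15 probe sets, of which 14 passed a filter on dim signals, and all 7 genes stood among the 12565 genes kept.

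The study profiled gastrocnemius muscle of male mice from a cross of C57BL/6N and FVBN. The 4 groups were knockout starved, knockout fed, control starved and control fed. Knockout mice carried floxed FoxO1, FoxO3 and FoxO4 (FoxO1,3,4 f/f) together with a Cre transgene, and control mice carried the floxed alleles and are labelled wild type. Cre was driven by the MLC1f promoter, that of a fast myosin light chain, which by the study's account is active in type II and not in type I fibres, so type I fibres and the other cells of the tissue keep FoxO. Starvation lasted 24 h with water at hand, and fed mice ate freely. RNA of 6 muscles from 3 mice was pooled for each group and hybridized to 1 Affymetrix array, so no value below has a replicate check and no test was possible. In such whole tissue, fewer cells of a type and less RNA per cell cannot be told apart.

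Autophagy encloses cytoplasm in a double membrane that then fuses with lysosomes. LC3 and GABARAP proteins, the mammalian relatives of yeast Atg8, are cleaved by ATG4 proteases and joined to a membrane lipid by a cascade that includes ATG7 and ATG3, and they are needed for the vesicle to grow, to take up cargo and to reach the lysosome. Receptors such as p62 and NBR1 bind ubiquitin on cargo with one domain and LC3 or GABARAP with a short motif, and are themselves degraded with the cargo. In skeletal muscle, fasting is a strong inducer of autophagy, and FoxO transcription factors are known activators of several of these genes.

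Because the responses are described below as changes in transcript signal, the start regions of the genes that responded most are shown first. RefSeq promoter windows of build GRCm38.p6, reaching from 250 bases before to 50 bases after the annotated start, were found for 6 of the 7 genes, with 7 windows in all because Nbr1 has a pair of them, and Map1lc3a was not matched. The windows of Gabarapl1 (chr6:129532942-129533241, plus strand), Map1lc3b (chr8:121590188-121590487, plus strand) and Sqstm1 (chr11:50210771-50211070, minus strand) are printed because these 3 genes rose on starvation in control muscle, with motif matches in capitals.
Gabarapl1: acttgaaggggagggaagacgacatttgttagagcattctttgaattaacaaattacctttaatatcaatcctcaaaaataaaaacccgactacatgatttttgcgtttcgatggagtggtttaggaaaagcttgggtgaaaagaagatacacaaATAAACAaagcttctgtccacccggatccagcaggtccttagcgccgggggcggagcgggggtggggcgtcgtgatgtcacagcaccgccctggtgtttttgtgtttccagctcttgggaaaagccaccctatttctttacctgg
Map1lc3b: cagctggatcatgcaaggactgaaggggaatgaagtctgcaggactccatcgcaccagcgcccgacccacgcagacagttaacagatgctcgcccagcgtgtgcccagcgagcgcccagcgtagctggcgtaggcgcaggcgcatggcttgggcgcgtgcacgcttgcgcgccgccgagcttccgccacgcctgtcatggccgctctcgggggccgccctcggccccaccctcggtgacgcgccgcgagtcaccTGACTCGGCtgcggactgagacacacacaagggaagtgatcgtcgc
Sqstm1: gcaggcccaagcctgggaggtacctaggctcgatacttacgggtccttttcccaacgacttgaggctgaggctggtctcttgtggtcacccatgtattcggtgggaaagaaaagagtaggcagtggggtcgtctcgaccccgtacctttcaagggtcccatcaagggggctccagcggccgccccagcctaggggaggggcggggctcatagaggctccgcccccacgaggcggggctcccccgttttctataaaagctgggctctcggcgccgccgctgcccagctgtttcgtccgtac
The letters searched, on both strands, were the forkhead consensus GTAAACA, the insulin response element CAAAACA, the E-box core CACGTG, which the CLEAR element of lysosomal genes contains, and the antioxidant response element core TGACNNNGC. None of the 7 windows held GTAAACA or CACGTG, which 3.65% and 7.15% of all 32851 windows of this length hold. The Gabarapl1 window held ATAAACA, a forkhead variant added to the search after the windows were read, 95 to 89 bases before the start, and 4.6% of all windows hold it. The Map1lc3b window held 1 match of the antioxidant response element core, from 4 to 12 bases after the first transcribed base, and 12.4% of all windows hold that core. The Sqstm1 window held no match. CAAAACA was found on the opposite strand 143 bases before the start of Gabarap and 150 bases before the downstream start of Nbr1, and 6.28% of all windows hold it. These matches are descriptions of the letters in the windows, not of binding.

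The labels of the arrays were checked on the deleted genes and on markers of muscle. Foxo4 had signals of 34.3 in knockout starved and 31.3 in knockout fed muscle, against 291.3 in control starved and 296.9 in control fed muscle. Foxo1 had 165.5 and 185.2 on the knockout starved and fed arrays and 554.4 and 303.8 on the control starved and fed arrays. Foxo3 had 460.9 and 297.3 on the knockout starved and fed arrays and 477.8 and 250.1 on the control starved and fed arrays, so its log2 ratio of knockout over control was -0.05 in starved and 0.25 in fed muscle, and where its probe set lies relative to the deleted part was not analysed here. All 8 skeletal muscle markers were present, and their summed signal lay between 95303.2 and 103195.4 on the 4 arrays. Hair shaft and epidermis markers differed between arrays, with summed signals of 2612.3 in knockout starved, 1441.8 in knockout fed, 1054.8 in control starved and 1656.9 in control fed muscle. Single markers differed more and in both directions: of 22 past the filter, 15 rose and 3 fell on starvation in knockout muscle, while 6 rose and 14 fell in control muscle, and the hair keratin Krt25 had 318.5 in knockout starved and 18.2 in knockout fed muscle, against 6.9 in control starved and 252.9 in control fed muscle. The array medians were 22.9 and 23.8 for knockout starved and fed muscle and 26.0 and 26.3 for control starved and fed muscle, so knockout signals were lower in general. Over all 12565 genes the median log2 ratio of knockout over control was -0.20 in fed and -0.16 in starved muscle. It became -0.05 and 0.02 with the arrays scaled to 1 median, while 18 bacterial hybridization control probe sets had medians of -0.10 and -0.09 as deposited.

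In control muscle, starvation raised the transcripts of Gabarapl1, Map1lc3b and Sqstm1 by at least 1.5-fold, the threshold of the study, which is 0.58 on the log2 scale. In knockout muscle Gabarapl1 alone of the 7 genes passed that threshold. No member fell on starvation in either genotype. All 7 genes had their highest signal on the control starved array, and so did each of the 14 probe sets that passed the filter. The share of all genes that were highest on that array was not counted, and control signals were higher in general. For the 1.5-fold calls the background is given: 7.39% of the 12565 genes rose and 9.45% fell on starvation in knockout muscle, while 9.23% rose and 14.2% fell in control muscle. The median log2 starvation response of the 7 genes was 0.07 in knockout and 0.52 in control muscle, beside medians of -0.06 in knockout and -0.11 in control muscle over all genes. All 7 genes, taken by their brightest probe set, lay in the brightest 20.0% of probe sets, with a mean signal of 441.6 or more. Of the 3161 genes at that brightness, 3.45% rose in knockout and 6.23% in control muscle.

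**Figure D1:**
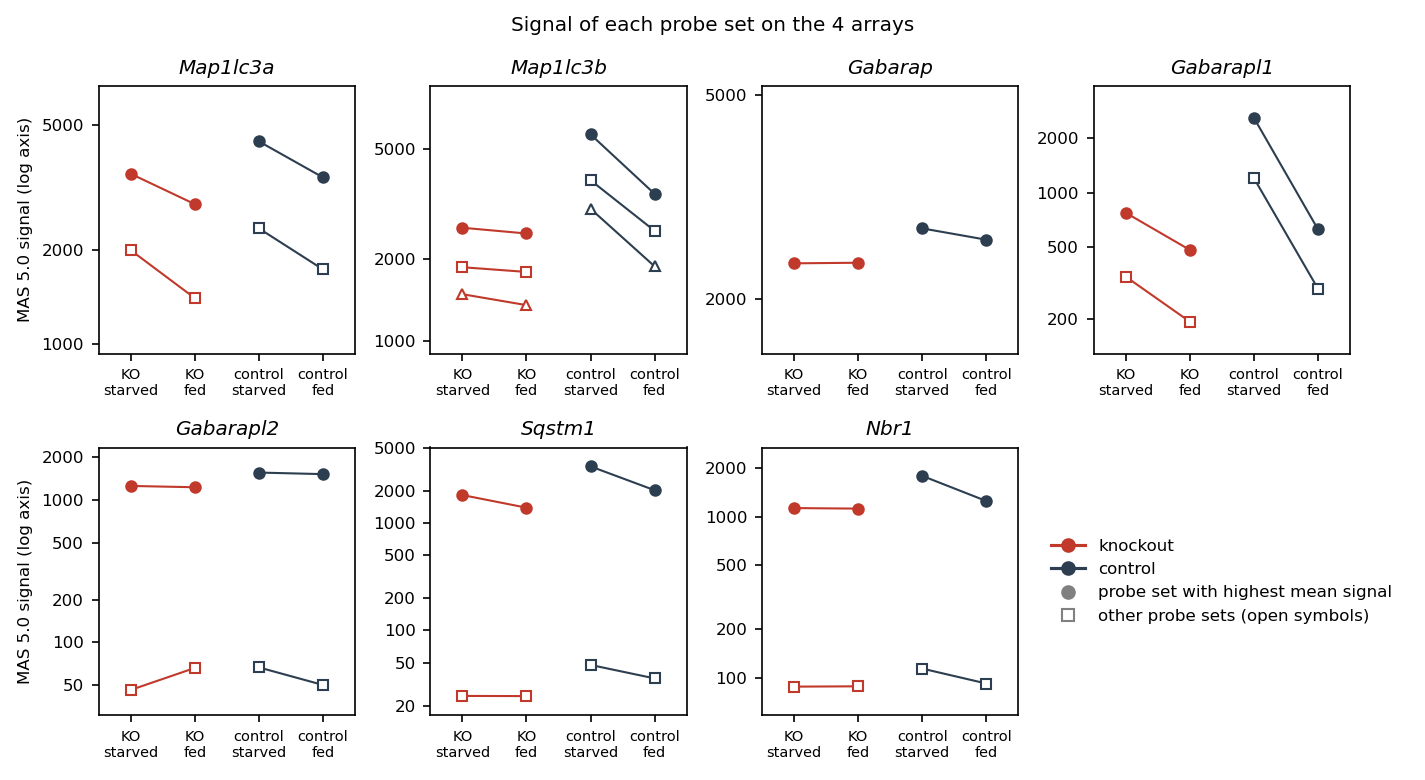
MAS 5.0 signal (linear units on a log axis, scaled separately for each gene) of each probe set past the filter on the knockout starved, knockout fed, control starved and control fed arrays, 1 pooled array each. Filled circles mark the brightest probe set of a gene and open symbols the others, and lines join the starved and fed arrays of a genotype; the control starved array is highest for all 14 probe sets.

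Where several probe sets read 1 gene, the scatter among them gave the only measure of spread on these arrays. Among the brightest 20.0% of probe sets, its SD was 0.26 for the log2 starvation response in knockout muscle and 0.29 in control muscle, 0.24 for knockout over control in fed and 0.28 in starved muscle, and 0.37 for the difference of the responses. Among the dimmest 20.0% the SD was 0.83 in knockout and 0.81 in control muscle for the starvation response. This scatter leaves out differences between mice and between hybridizations.

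Among the GABARAP genes, Gabarapl1 had by far the largest response. Gabarapl1 had a signal of 773.9 in knockout starved and 482.3 in knockout fed muscle, against 2592.7 in control starved and 626.6 in control fed muscle. The control starved array thus stood well above the other 3, and knockout starved muscle lay above control fed muscle. The ratio of starved over fed signal was 1.60 in knockout and 4.14 in control muscle, or 0.68 and 2.05 on the log2 scale, and the value in control muscle ranked 109 from the highest of 12565 genes. The name of this probe set marks it as one whose probes can match transcripts of more than 1 gene, a limit for a family of similar sequences. The other Gabarapl1 probe set, which has no such mark, read 343.1 in knockout starved and 193.4 in knockout fed muscle, against 1203.0 in control starved and 294.2 in control fed muscle. It gave ratios of 1.77 in knockout and 4.09 in control muscle, so both probe sets placed the gene above 1.5-fold in each genotype.

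The other 2 GABARAP genes stayed near their fed signals. Gabarap, the founding member of the subfamily and known first as a partner of the GABA(A) receptor, had signals of 2343.2 in knockout starved and 2349.2 in knockout fed muscle, against 2741.7 in control starved and 2605.6 in control fed muscle. Its starved over fed ratios were 0.997 in knockout and 1.05 in control muscle, both within the scatter between probe sets. Gabarapl2, also called GATE-16 and known for a role in transport within the Golgi, had 1257.6 in knockout starved and 1230.9 in knockout fed muscle, against 1561.5 in control starved and 1522.2 in control fed muscle, which makes ratios of 1.02 and 1.03. For both genes the control arrays were the higher pair as deposited, where knockout signals were lower in general. With the arrays scaled to 1 median, the log2 ratio of knockout over control was -0.01 in fed and -0.04 in starved muscle for Gabarap. For Gabarapl2 it was -0.16 in fed and -0.13 in starved muscle. A second Gabarapl2 probe set was dim, at 46.3 in knockout starved and 66.1 in knockout fed muscle, against 66.7 in control starved and 50.2 in control fed muscle, and differed from the bright one in the direction of the response in knockout muscle.

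**Figure D2:**
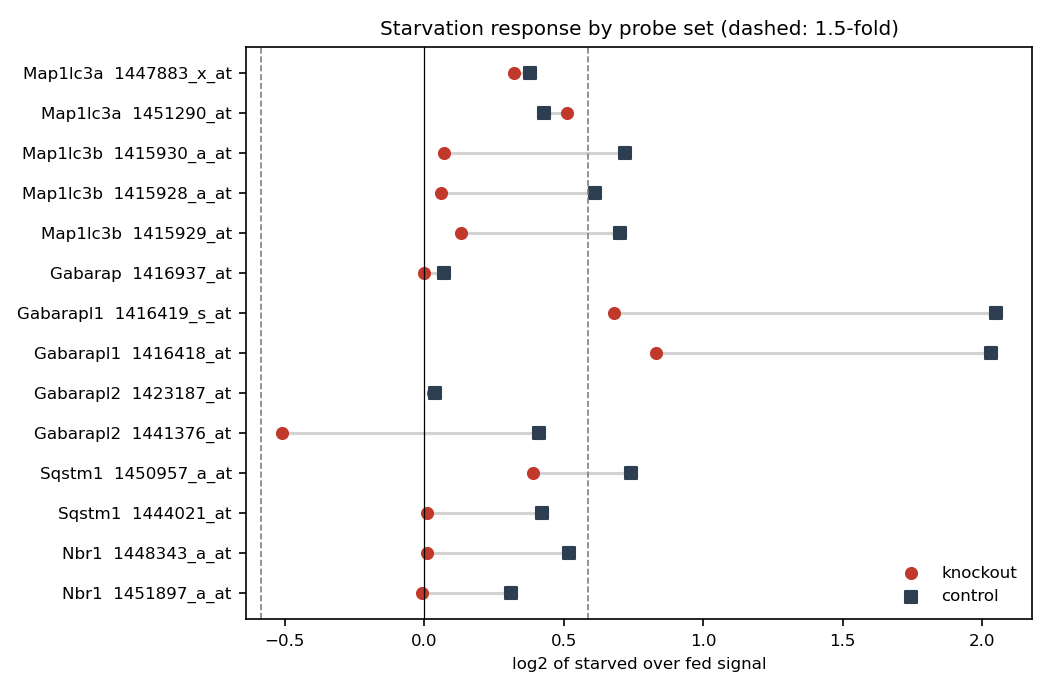
Log2 of starved over fed signal for each of the 14 probe sets, with knockout (circles) and control muscle (squares), each condition being 1 pooled array, and 1.5-fold limits dashed. The points of both Gabarapl1 probe sets lie past the line in each genotype, while those of Map1lc3b pass it in control muscle alone, and the knockout point of the bright Gabarapl2 probe set is hidden behind the control point.

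Of the LC3 genes, Map1lc3b rose in control muscle. Map1lc3b encodes LC3B, the form most often followed as a marker of autophagosomes. Its brightest probe set read 2591.4 in knockout starved and 2469.3 in knockout fed muscle, against 5666.2 in control starved and 3441.0 in control fed muscle. The control starved array was the highest and both knockout arrays lay below control fed muscle. The ratio of starved over fed signal was 1.05 in knockout and 1.65 in control muscle. The second probe set read 1861.6 in knockout starved and 1789.1 in knockout fed muscle, against 3858.4 in control starved and 2524.6 in control fed muscle. The third read 1484.9 and 1354.8 in knockout starved and fed muscle and 3037.1 and 1874.4 in control starved and fed muscle. The 3 probe sets therefore kept the same order of the arrays, with log2 responses of 0.07, 0.06 and 0.13 in knockout and 0.72, 0.61 and 0.70 in control muscle. One more probe set, at signals of 1.5 to 5.8, did not pass the filter.

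Map1lc3a, which encodes the related LC3A, did not reach 1.5-fold in either genotype. It had signals of 3487.7 in knockout starved and 2792.7 in knockout fed muscle, against 4421.1 in control starved and 3396.7 in control fed muscle. Starved arrays were the higher ones within each genotype, by ratios of 1.25 in knockout and 1.30 in control muscle. The name of this probe set marks some of its probes as able to bind other transcripts. The other Map1lc3a probe set, without that mark, gave log2 responses of 0.51 in knockout and 0.43 in control muscle, against 0.32 and 0.38 for the brightest. The responses in the 2 genotypes differed by -0.06 and 0.07 on these probe sets, knockout minus control, less than the scatter between probe sets.

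Of the receptors, Sqstm1 rose in control muscle and Nbr1 came close to the threshold. Sqstm1 encodes p62, which gathers ubiquitinated proteins into bodies and also serves as a signalling scaffold. Sqstm1 had signals of 1823.9 in knockout starved and 1391.4 in knockout fed muscle, against 3370.8 in control starved and 2022.5 in control fed muscle. Both knockout arrays lay below the control fed array as deposited, but only knockout fed did with the arrays scaled to 1 median. The ratio of starved over fed signal was 1.31 in knockout and 1.67 in control muscle, that is 0.39 and 0.74 on the log2 scale. A dim probe set read 24.6 in knockout starved and 24.5 in knockout fed muscle, against 47.8 in control starved and 35.8 in control fed muscle, with log2 responses of 0.01 and 0.42. With the mean over both probe sets the response in control muscle was 0.58, just short of the threshold.

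Nbr1 encodes a receptor built like p62 that takes part in the turnover of ubiquitinated cargo and, in muscle, binds titin. It had signals of 1129.2 in knockout starved and 1120.2 in knockout fed muscle, against 1788.2 in control starved and 1248.8 in control fed muscle. The control starved array stood apart from the other 3, which were close to each other. The ratios of starved over fed signal were 1.01 in knockout and 1.43 in control muscle. The dim probe set of Nbr1 read 88.1 in knockout starved and 88.5 in knockout fed muscle, against 114.0 in control starved and 92.1 in control fed muscle, and gave 0.31 on the log2 scale in control muscle. Counted by probe set, 2 of the 14 rose in knockout and 6 of the 14 in control muscle, beside 7.61% in knockout and 10.1% in control muscle of all 22180 probe sets past the filter.

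Knockout was then compared with control muscle under each feeding state. In fed muscle none of the 7 genes passed 1.5-fold, beside 3.38% of all genes that were higher and 11.3% that were lower in knockout. All 7 log2 ratios lay below 0, between -0.54 for Sqstm1 and -0.15 for Gabarap, with a median of -0.31 against -0.20 for all genes. Map1lc3b stood at -0.48 and Gabarapl1 at -0.38, and the other Gabarapl1 probe set, at -0.61, was the 1 probe set of the 14 to pass, beside 12.2% of all probe sets that were lower. With arrays scaled to 1 median, 4.78% of all genes were higher and 7.19% lower in knockout. Under quantile normalization the sign turned for Gabarap, at 0.02, and for Nbr1, at 0.04.

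In starved muscle, 4 of the 7 genes were at least 1.5-fold lower in knockout than in control muscle. The background was 6.39% of all genes higher and 14.6% lower, and 9.33% lower among the brightest genes. With arrays scaled to 1 median the shares over all genes were 10.1% higher and 8.32% lower. Gabarapl1 in knockout stood at 0.298 of its control signal, Map1lc3b at 0.457, Sqstm1 at 0.541 and Nbr1 at 0.631. Relative to the median of all genes these log2 differences were -1.58, -0.97, -0.72 and -0.50 in the same order, and that of Gabarapl1 ranked 160 from the lowest of 12565. Map1lc3a, Gabarapl2 and Gabarap had ratios of 0.789, 0.805 and 0.855, and relative to the median their log2 values were -0.18, -0.15 and -0.06. All 14 probe sets lay below 0 and 8 passed 1.5-fold, beside 17.0% of all probe sets. The call of Nbr1 was lost, at -0.48, with the arrays scaled to 1 median.

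**Figure D3:**
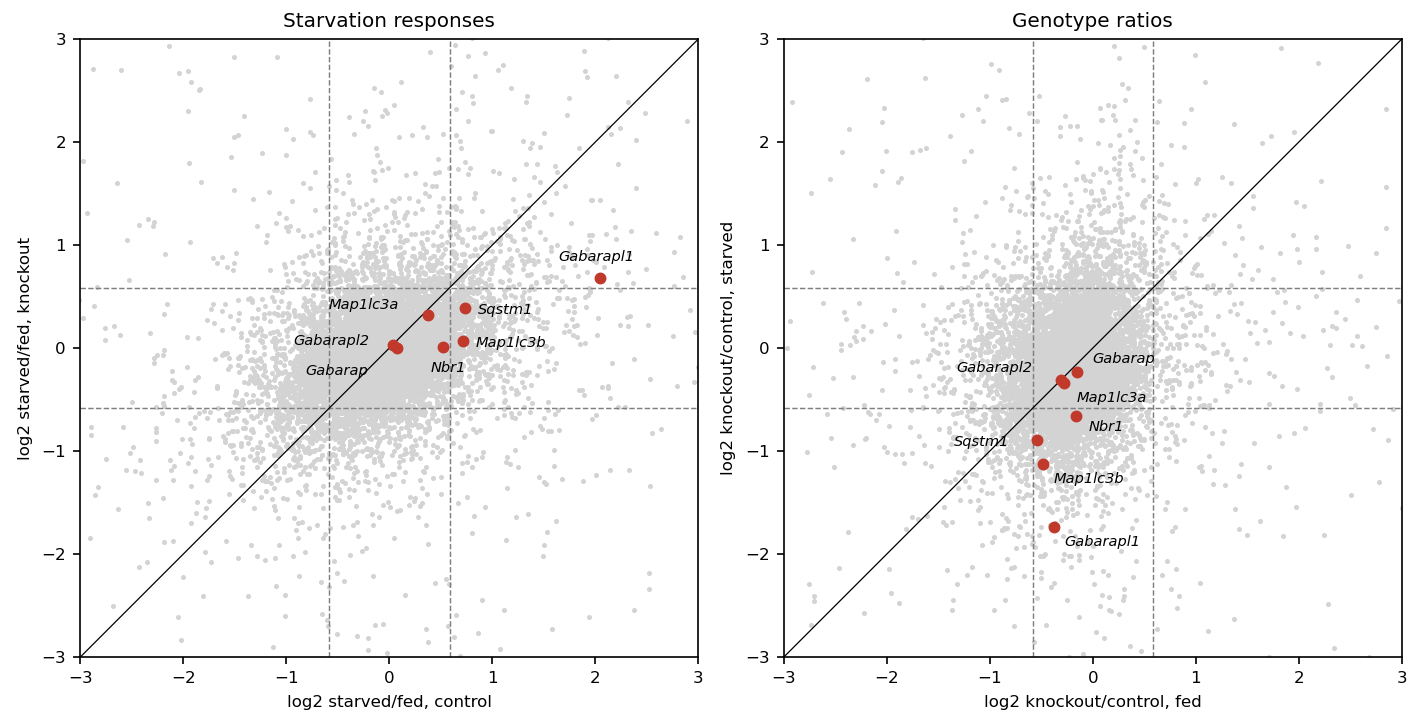
Each grey point is 1 of the 12565 genes, and red points are the 7 LC3, GABARAP and receptor genes; axes are log2 ratios, cut at 3 in both directions, which leaves 240 genes outside. The left panel sets the starvation response in knockout against that in control muscle and the right panel the knockout over control ratio in starved against that in fed muscle, with dashed lines at 1.5-fold and the line of equal values; Gabarapl1 lies furthest from that line among the 7.

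The difference of the starvation responses was taken as knockout minus control on the log2 scale. On the signals as deposited, it was below 0 for the brightest probe set of all 7 genes. The share of all genes below 0 was not counted. It was -1.37 for Gabarapl1 and -0.65 for Map1lc3b, both past 1.5-fold, beside 10.4% of all genes past that threshold in this direction and 12.3% in the other. Among the brightest genes, 3.67% were past it in this direction. Nbr1 stood at -0.51 and Sqstm1 at -0.35, which is less than the SD of 0.37 between probe sets for Sqstm1. Map1lc3a, Gabarap and Gabarapl2 stood at -0.06, -0.08 and -0.01. The sign turned for Gabarapl2, at 0.03, with the arrays scaled to 1 median, and for Map1lc3a, at 0.01, with the mean over probe sets. The median over the 7 genes was -0.35 and that over all genes 0.04. All of these comparisons share arrays, so the values in starved muscle and the differences of the responses both rest on the control starved array.

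Markers of other cells were read beside these results, because the members were highest on the control starved array. The summed signal of the 5 blood cell markers with a probe set, of 6 listed, was 274.6 in knockout starved and 378.1 in knockout fed muscle, against 607.2 in control starved and 371.9 in control fed muscle, and none of them was listed at 0 while Hba-a1 lay under the median of every array. The sum of the 4 adipocyte markers with a probe set, of 6 listed, was 16388.4 and 15781.4 in knockout starved and fed muscle and 20047.1 and 18129.9 in control starved and fed muscle. Both sums were highest on the same array as the members, but not each marker. Of the blood cell markers, 3 of 5 (Alas2, S100a8 and S100a9) were highest on the control starved array, and Ptprc was highest in control fed muscle, at 185.2 beside 169.4 in control starved muscle. Of the adipocyte markers, Adipoq and Fabp4 were highest on the control starved array, and Fabp4 made up most of the sum, while Retn and Lep were highest in control fed muscle. The part of these cells in the result was not tested. Sums of 8 macrophage, 6 endothelial and 5 fibroblast markers were highest on the control fed array, at 7160.4, 2455.0 and 28039.3. The 3' over 5' signal ratio of actin, a measure of RNA integrity, lay between 1.07 and 1.23 and that of Gapdh between 0.818 and 0.836.

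The members differed in the shape of their pattern over the 4 arrays. The Euclidean distance between mean-centred log2 signals was smallest for Gabarap and Gabarapl2, at 0.13, followed by Map1lc3b and Sqstm1 at 0.24 and Map1lc3a and Nbr1 at 0.26. It was largest between Gabarap and Gabarapl1, at 1.72. Every distance from Gabarapl1 to another member was 1.01 or more. On the signals as deposited, Map1lc3b, Nbr1, Sqstm1 and Gabarapl2 had the order control starved, control fed, knockout starved and knockout fed. For Gabarapl1 and Map1lc3a the knockout starved array lay above the control fed array. With the arrays scaled to 1 median it did so for Sqstm1, Nbr1 and, by a small margin, Gabarap as well. In the same order, their log2 ratios of knockout over control in fed muscle were then -0.40, -0.01 and -0.01. Their responses in knockout muscle were 0.45, 0.07 and 0.05.

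For each of the 3 genes that rose in control muscle, the 3 nearest of 7422 bright genes by the same distance were taken. Nearest to Gabarapl1 were Tgif1, a repressor of Smad signalling, at 0.14, Eif4ebp1, an inhibitor of translation initiation, at 0.20, and Eda2r, a receptor of the TNF receptor family, at 0.24. Eif4ebp1 had signals of 1507.3 in knockout starved and 874.3 in knockout fed muscle, against 5621.3 in control starved and 1316.3 in control fed muscle. Nearest to Map1lc3b were Apoc1, an apolipoprotein, at 0.03, Mocos, a molybdenum cofactor sulfurase, at 0.04, and Fosl2, a subunit of AP-1, at 0.06. Nearest to Sqstm1 were H1f2, a linker histone, at 0.04, Flcn, which encodes folliculin, a regulator of nutrient signalling at the lysosome, at 0.05, and Zcchc24 at 0.06. Tgif1, Apoc1 and Mocos reached the 75th percentile on the control starved array alone, at 308.1, 189.1 and 165.7 beside 136.3, so they entered through that array. With 4 arrays many genes can share a pattern, and the distances describe these arrays only.

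The enzymes that prepare and attach LC3 and GABARAP proteins stayed under the threshold on starvation. None of the 11 listed genes rose or fell by 1.5-fold on starvation in knockout or control muscle, and 10 of the 11 lay below 0 in each, with medians of -0.09 in knockout and -0.29 in control muscle. Among all genes, 7.39% rose and 9.45% fell in knockout, and 9.23% rose and 14.2% fell in control muscle. The medians over all genes were also below 0, at -0.06 in knockout and -0.11 in control muscle. The share of all genes below 0 was not counted. Atg7, the E1-like activating enzyme, was the gene above 0 in control muscle, with signals of 55.6 in knockout starved and 62.3 in knockout fed muscle, against 81.1 in control starved and 54.4 in control fed muscle, a ratio of 0.892 in knockout and 1.49 in control muscle. Its 3 probe sets ranged from -0.63 to 1.98 on the log2 scale in knockout muscle and between 0.28 and 2.43 in control muscle. Atg4a, a protease that trims these proteins, had 759.7 in knockout starved and 755.8 in knockout fed muscle, against 460.2 in control starved and 680.8 in control fed muscle. In starved muscle it was therefore 1.65-fold higher in knockout than in control, the opposite direction to the members. As deposited, Atg4a was the 1 enzyme of 11 past 1.5-fold in that comparison, beside 6.39% of all genes higher and 14.6% lower. The protease genes Atg4d and Atg4c had log2 responses of -0.03 and -0.44 in knockout and of -0.52 and -0.48 in control muscle.

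Among 18 other receptors and adaptors that bind LC3 or GABARAP proteins, of 20 listed, 3 rose in knockout muscle and none fell. In control muscle 4 of the 18 rose and 2 fell, and the medians were 0.02 in knockout and 0.05 in control muscle. Over all genes, 7.39% rose and 9.45% fell in knockout, while 9.23% rose and 14.2% fell in control muscle. Retreg1, also called FAM134B, a receptor for turnover of the endoplasmic reticulum, rose in both genotypes, with 8962.2 in knockout starved and 4353.1 in knockout fed muscle, against 12607.0 in control starved and 5463.1 in control fed muscle. Its ratios were 2.06 in knockout and 2.31 in control muscle, a difference of -0.16 on the log2 scale. The other Retreg1 probe set read 3414.5 in knockout starved and 1168.0 in knockout fed muscle, against 8370.8 in control starved and 1577.8 in control fed muscle. Its log2 responses were 1.55 in knockout and 2.41 in control muscle, so the probe sets differed in the size of the difference, which was -0.86 here. Bnip3, a mitophagy receptor, had 5473.2 in knockout starved and 4310.9 in knockout fed muscle, against 9312.6 in control starved and 5406.6 in control fed muscle, which makes ratios of 1.27 in knockout and 1.72 in control muscle. Stbd1, which binds glycogen, fell in control muscle, with 749.4 in knockout starved and 787.5 in knockout fed muscle, against 249.4 in control starved and 451.9 in control fed muscle. The mitophagy receptor Fundc1 had ratios of 0.839 in knockout and 0.599 in control muscle. Tax1bp1 and Tollip, both ubiquitin-binding receptors, rose 1.56-fold and 1.52-fold in control muscle, with ratios of 1.02 and 1.10 in knockout muscle. Plekhm1 and Calcoco1 rose 1.57-fold and 1.55-fold in knockout muscle and had nearby ratios of 1.48 and 1.40 in control muscle, just under the threshold. These 4 genes were named after their values were seen.

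On the signals as deposited, 7 of these 18 genes were lower in starved knockout than in starved control muscle, and 1 was higher. Beside them, 14.6% of all genes were lower and 6.39% higher. With the arrays scaled to 1 median, 8.32% of all genes were lower and 10.1% higher. That scaling raised ratios of knockout over control, and the 18 genes were not counted again. Tollip and Plekhm1 lay close to the threshold as deposited, at -0.63 and -0.60 on the log2 scale. The median log2 ratio of the 18 was -0.45, and that of all genes -0.16. Stbd1 was the higher one, at 3.0-fold. Sec62, which takes part in recovery of the endoplasmic reticulum after stress, stood at 0.591, with starved over fed ratios of 0.912 in knockout and 1.41 in control muscle. Its 5 probe sets spread from -0.98 to 0.95 in knockout and from 0.42 to 2.16 in control muscle. The difference of the responses passed 1.5-fold downwards for Sec62, at -0.63, and Tax1bp1, at -0.61, and upwards for Stbd1, at 0.79. Over all genes, 10.4% passed it downwards and 12.3% upwards, so the downward count was close to the background and the upward count below it.

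**Figure D4:**
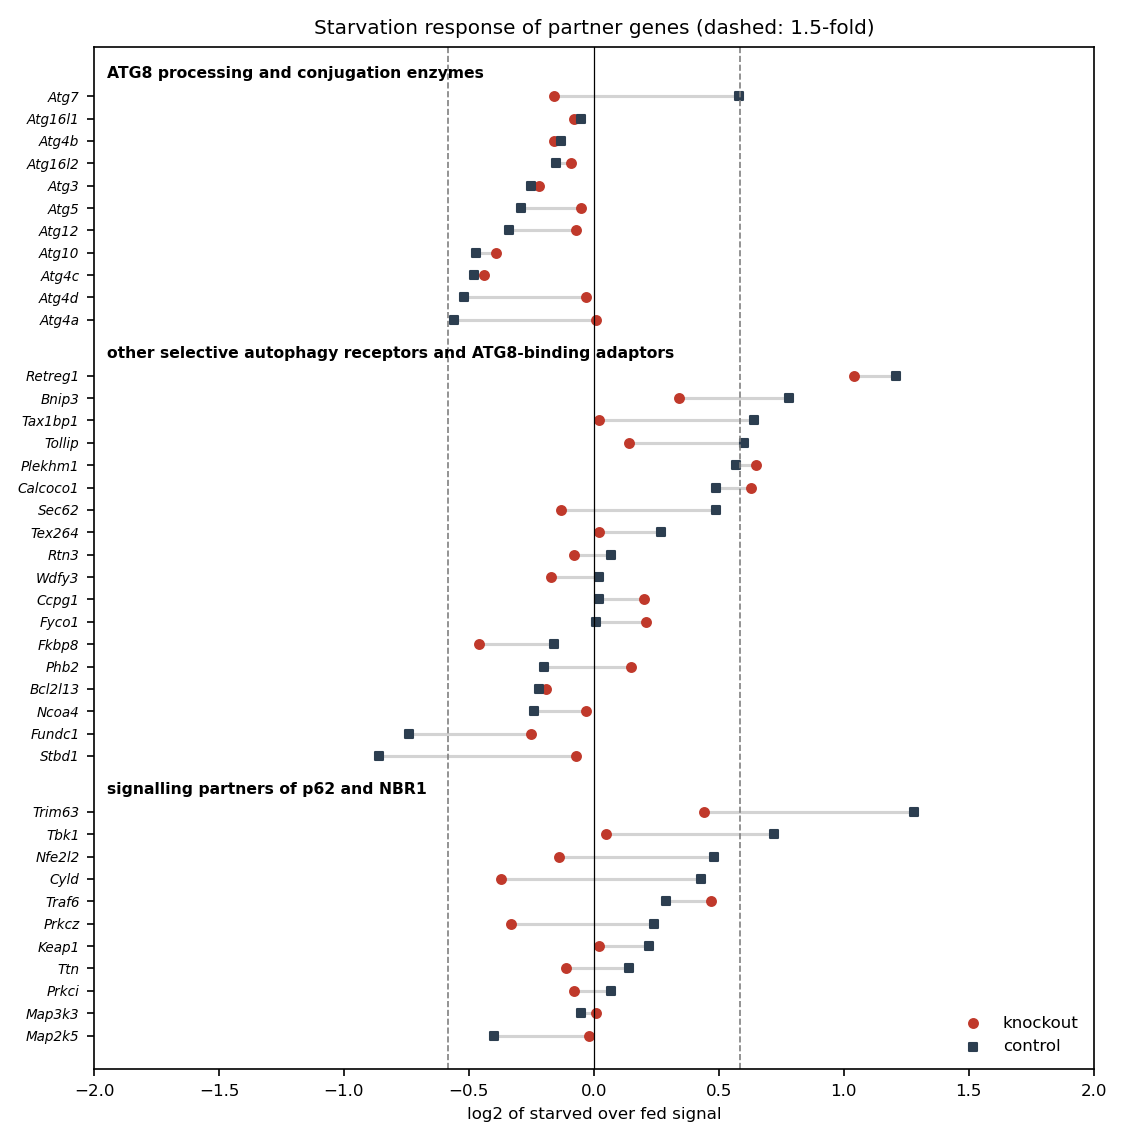
Log2 of starved over fed signal in knockout and control muscle for the 11 processing and conjugation enzymes, the 18 other receptors and adaptors and the 11 signalling partners of p62 and NBR1, 1 pooled array per condition, with dashed lines at 1.5-fold. None of the enzymes passes the lines, and Retreg1 passes in both genotypes.

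Of 12 listed signalling partners of p62 and NBR1, 11 were measured, and none passed 1.5-fold on starvation in knockout muscle, while 2 rose in control muscle. The shares of all genes were 7.39% up and 9.45% down in knockout, and 9.23% up and 14.2% down in control muscle. Trim63, the gene of the muscle ubiquitin ligase MuRF1, had 4759.1 in knockout starved and 3510.1 in knockout fed muscle, against 10852.6 in control starved and 4465.1 in control fed muscle. Tbk1, a kinase that phosphorylates autophagy receptors, had 469.7 in knockout starved and 453.2 in knockout fed muscle, against 888.9 in control starved and 538.0 in control fed muscle. Both were highest on the control starved array, as the members were. The ratios of starved over fed signal were 1.36 in knockout and 2.43 in control muscle for Trim63, and 1.04 and 1.65 for Tbk1. Nfe2l2, the transcription factor NRF2 of the antioxidant response, which p62 can release from KEAP1, had ratios of 0.909 in knockout and 1.40 in control muscle. In starved muscle Trim63, Tbk1 and Nfe2l2 were lower in knockout than in control, at 0.439, 0.528 and 0.581. Beside them, 14.6% of all genes were lower on the signals as deposited. The share was 8.32% with the arrays scaled to 1 median, for which the ratios of the partners were not computed. The difference of the responses was past 1.5-fold downwards for Trim63, Tbk1, Nfe2l2 and Cyld, a deubiquitinase that binds p62, at -0.84, -0.67, -0.62 and -0.80. Of all genes, 10.4% were past it in this direction.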

How the data were processed

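Signal intensities of 4 arrays were used, on the linear scale on which the authors deposited them, after summary of each probe set with MAS 5.0. The scaling target is not given in the sources used here. Python 3.11.15 with numpy 2.4.6, pandas 2.3.3 and matplotlib 3.10.9 gave the ratios, their log2 and the figures. Signals under 0.1 were set to 0.1 before a logarithm. Of 45037 probe sets, controls left out, 34945 have 1 gene in the platform annotation, 932 have several and 9160 are not listed; symbols of 34741 were updated through gene identifiers. Probe sets at or above the 50th percentile of any 1 of the arrays were kept, and the brightest of a gene's probe sets by mean signal stood for it. Genes called up or down passed 1.5-fold. Calling was tested on simulated data with known fold changes. With 1 array per group, the number of arrays limits the precision.

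The members, lists and tests were chosen with earlier results of these data known. Beside the members, the text names up to 4 genes of each list by their response in control muscle, up to 2 by the difference of the responses, and for each member that rose in control muscle the 3 nearest genes that reach the 75th percentile of an array; exceptions are stated. Optn, Bnip3l and Trim55 are not analysed here. The alternatives were scaling to 1 median, quantile normalization, no filter, a 75th percentile filter, 16 units added to each signal, the mean over probe sets and a 2-fold threshold.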

Additional observations from a re-analysis of the deposited data

Results flagged for a closer look

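For the following genes the log2 starvation response had opposite signs in knockout and control muscle. The value given first is the difference, knockout minus control, and with 1 array per condition the difference was not tested. Among the members, Gabarap had -0.08, where its response in knockout muscle was 0.997-fold, the dim probe set of Gabarapl2 had -0.92, with -0.51 in knockout and 0.41 in control muscle, and the dim probe set of Nbr1 had -0.31, with -0.01 and 0.31. Among the processing enzymes, Atg4a had 0.57, with 0.01 in knockout and -0.56 in control muscle, and Atg7 had -0.74, with -0.16 in knockout and 0.58 in control muscle. Sec62 had -0.63, with -0.13 in knockout and 0.49 in control muscle. Of the signalling partners, Nfe2l2 had -0.62, with -0.14 in knockout and 0.48 in control muscle, and Cyld had -0.80, with -0.37 and 0.43. Of the deleted factors, Foxo1 had -1.03, with -0.16 in knockout and 0.87 in control muscle, and Foxo4 had 0.16, with 0.13 and -0.03. The SD between probe sets of one gene for this difference was 0.37 among the brightest and 1.16 among the dimmest 20.0% of probe sets.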

How the results depend on the processing

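At a 2-fold threshold the members called numbered 0 for starvation in knockout muscle, 1 for starvation in control muscle (Gabarapl1), 2 for knockout over control in starved muscle (Map1lc3b and Gabarapl1) and 1 for the difference of the responses (Gabarapl1). The shares of all genes at 2-fold were 3.3% up in knockout, 3.73% up in control, 4.53% down in starved knockout over control muscle and 4.34% down for the difference. The other 6 alternatives kept each count within 1.5-fold. For starvation in control muscle quantile normalization added Nbr1, giving 4, and the mean over probe sets left out Sqstm1, giving 2. For starved knockout over control muscle, scaling to 1 median, quantile normalization and the mean over probe sets left out Nbr1, giving 3. Of 210 log2 values of members under the 6 alternatives, 207 stayed within the scatter between probe sets, and 3, all of Gabarapl2 with the mean over probe sets, did not: -0.24 for starvation in knockout muscle, 0.05 for knockout over control in fed muscle and -0.46 for the difference. The background moved more: with no filter 15.1% of genes rose in knockout and 16.5% in control muscle, and at the 75th percentile 3.77% and 6.78%. In fed muscle 18.9% were lower in knockout with no filter and 5.38% at the 75th percentile. For the difference 19.1% lay below the threshold with no filter and 5.22% at the 75th percentile. There is 1 array per group, so no replicate could be left out and dim probe sets carry little weight. No paired analysis was possible because each group has 1 array.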
